A study of Mus musculus with 12 samples.

Results

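Aminoacyl-tRNA synthetases join each amino acid to its transfer RNA, the step that fixes which residue the ribosome adds at a codon. Animal cells keep a cytosolic set and a mitochondrial set, both encoded by nuclear genes, and the mitochondrial enzymes are imported to charge the tRNAs that read the respiratory chain subunits made inside the organelle. Several cytosolic synthetase genes are known targets of ATF4, the transcription factor of the integrated stress response, and skeletal muscle depends heavily on its mitochondria. The family was taken here as every gene of the count table whose symbol is a capital letter followed by ars, with or without a closing 2, together with Eprs. This gave 35 of 12752 genes, of which 18 were taken as cytosolic and 17, those ending in 2, as mitochondrial. All 35 were among the 12751 genes tested, so no member was lost to the filter on low counts. Gars and Kars each encode both the cytosolic and the mitochondrial enzyme and were counted as cytosolic by name. Eprs encodes the joint glutamyl and prolyl enzyme, and Qars has no mitochondrial partner, because mitochondria make glutaminyl-tRNA through an amidotransferase.

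RNA was measured in whole tibialis anterior, a fast muscle of the lower leg, of male C57BL/6 mice. All muscles received AAV:TET at 8 weeks of age. DUX_DOX muscles also received AAV:Dux and came from mice fed chow with doxycycline at 600 mg/kg, EV_DOX muscles received the empty vector AAV:MCS and the same chow, DUX muscles received AAV:Dux and normal chow, and EV muscles received AAV:MCS and normal chow, with 3 libraries in each group. Dux is the murine counterpart of DUX4, whose aberrant expression in muscle underlies the human disease facioscapulohumeral muscular dystrophy. The doxycycline-inducible vector serves to ask what it does to gene expression in muscle. The chow began 7 days after injection and lasted 2 or 7 days more, and the labels do not say which of these applies, nor do they give the promoter of the vector or whether the libraries of a group are from different animals. The control vector went into one leg and the Dux vector into the opposite leg of a mouse, so DUX_DOX and EV_DOX muscles, and likewise DUX and EV muscles, may be pairs from the same mice, but the labels tie no library to a mouse. The tests treat all libraries as separate, and their p-values describe the spread between libraries, part of which may be technical.

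Libraries held 11880593 to 13811999 counts. Members had 303 to 3575 counts per library in the cytosolic set and 33 to 1151 in the mitochondrial set. Dux itself is not analysed here. Zscan4a, a gene of the Zscan4 cluster that Dux activates in early mouse embryos and whose copies share reads, was picked after its values were seen as a check of the labels: it had 37.1, 58.5 and 51.2 CPM (counts scaled to a common library size) in DUX_DOX libraries and at most 0.0769 CPM in any other library. All 10 listed markers of skeletal muscle fibres were measured. Their summed level was 118750 to 134620 CPM in DUX_DOX libraries and 145080 to 156370 CPM in EV_DOX libraries, while 14 macrophage markers summed to 326 to 466 CPM in DUX_DOX libraries and 148 to 199 CPM in EV_DOX libraries. Summed tenocyte markers ran from 242 to 326 CPM in DUX_DOX libraries and from 134 to 984.5 CPM in EV_DOX libraries. In whole muscle, fewer cells of a type and less RNA per cell cannot be told apart.

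Per unit of transcript length the cytosolic genes stood above the mitochondrial ones. Levels are given here in TPM, computed from the counts and the length of the principal transcript of each gene. TPM share a fixed total and do not carry the scaling used for the tests, so they serve to set genes beside each other within a group. The median member of the cytosolic set was at 41.9 TPM in DUX_DOX and 41.3 TPM in EV_DOX, and the median mitochondrial member at 12.9 TPM in DUX_DOX and 14.0 TPM in EV_DOX. Eprs (93.6 TPM in DUX_DOX and 90.5 TPM in EV_DOX) and Kars, the lysyl enzyme (106 TPM in DUX_DOX and 88.3 TPM in EV_DOX), led the cytosolic set, and their EV_DOX libraries overlapped. Vars, the valyl enzyme, was the lowest cytosolic member per length, with 21.6 TPM in DUX_DOX and 16.3 TPM in EV_DOX. Among the mitochondrial genes Iars2, the isoleucyl enzyme, was highest per length at 23.8 TPM in DUX_DOX and 29.3 TPM in EV_DOX, followed by the leucyl enzyme Lars2 at 21.5 TPM in DUX_DOX and 22.9 TPM in EV_DOX. The lowest were Pars2, the prolyl enzyme, at 2.09 TPM in DUX_DOX and 1.96 TPM in EV_DOX, and Mars2, the methionyl enzyme, at 1.84 TPM in DUX_DOX and 1.88 TPM in EV_DOX. The place of Mars2 rests on its annotated transcript of 11294 bases, against 3046 for Pars2. Before length was taken into account, its mean in EV_DOX was 10.6 CPM against 2.97 CPM for Pars2.

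On doxycycline chow, the mitochondrial genes that differed between Dux and empty-vector muscle were all lower with Dux. All 17 mitochondrial synthetase genes had a fitted level below that of EV_DOX, and 4 of them, Iars2, Vars2, Aars2 and Sars2, passed the test as lower, at fitted levels of 0.735 to 0.777 times those of EV_DOX. The cytosolic genes were spread on both sides of no change, 9 above and 9 below, and only the valyl gene Vars passed, as higher. Fold changes in this text are log2 values of DUX_DOX over EV_DOX (or of the groups named) from the quasi-likelihood test of edgeR on the counts, given with their standard error, and a gene was called when its Benjamini-Hochberg adjusted p over all 12751 genes was under 0.05. In DUX_DOX against EV_DOX, 25.3% of all genes were called, 14.9% as higher and 10.3% as lower. Of the mitochondrial set 23.5% were called lower and 0 higher, and of the cytosolic set 5.6% were called higher and 0 lower. The median log2 fold change was -0.21 in the mitochondrial set, 0.02 in the cytosolic set and -0.01 over all genes, of which 50.6% were below 0. Without DUX_DOX library 3 the number of all genes called lower was 739 in place of 1319, and without EV_DOX library 3 the number of mitochondrial genes called lower was 2. Cytosolic genes called higher were 2 without DUX_DOX library 1 or EV library 2 and 0 without EV_DOX library 2, and cytosolic genes called lower were 1 without EV_DOX library 1 or EV library 2.

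**Figure D1:**
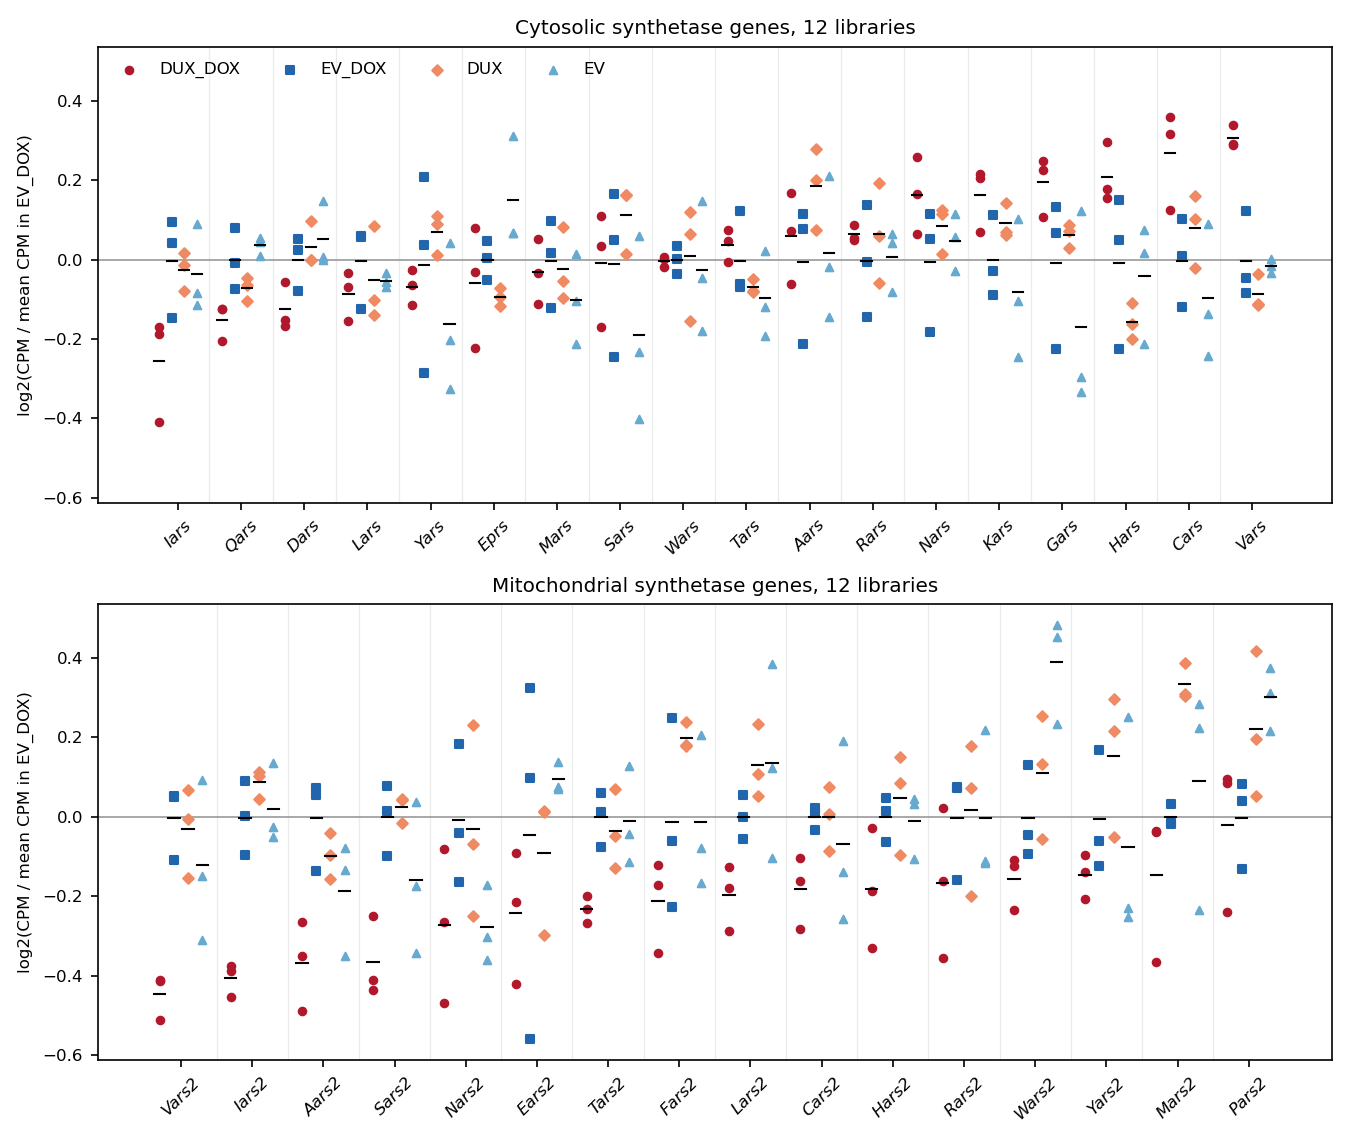
Level of 18 cytosolic and 16 of the 17 mitochondrial synthetase genes in each of the 12 libraries, as log2 of its CPM over the mean CPM in EV_DOX (y axis), with cytosolic genes above and mitochondrial genes below, ordered by their fold change in DUX_DOX against EV_DOX; short bars are group means. In the lower panel every mean of the 3 DUX_DOX libraries lies below 0, whereas in the upper panel they lie on both sides.

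Iars2, which charges mitochondrial isoleucine tRNA, had 61.7, 58.4 and 61.1 CPM in DUX_DOX libraries against 80.1, 74.9 and 85.1 CPM in EV_DOX libraries. It had 82.5, 86.5 and 86.0 CPM in DUX libraries and 77.3, 87.9 and 78.6 CPM in EV libraries. Its 3 DUX_DOX libraries were below each of the other 9, and it fell by 0.41 ± 0.08 on the log2 scale (edgeR adjusted p = 0.00161). The gene lies at chr1:185284726-185329396 on the minus strand of GRCm38, and 24.2% of its annotated exonic bases are shared with genes on the opposite strand, chiefly Rab3gap2. The strand setting of the counting is not given in the sources used here, so reads from that stretch cannot be told apart. Rab3gap2, a regulator of vesicle traffic, moved the other way and rose by 0.52 ± 0.10 (edgeR adjusted p = 0.00193).

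Vars2, the mitochondrial valyl enzyme, had 12.4, 12.4 and 11.6 CPM in DUX_DOX libraries against 17.2, 15.3 and 17.1 CPM in EV_DOX libraries. The same gene had 14.9, 16.5 and 17.3 CPM in DUX libraries and 17.6, 14.9 and 13.4 CPM in EV libraries. Here too the DUX_DOX libraries were below the other 9, and Vars2 fell by 0.44 ± 0.12 (edgeR adjusted p = 0.0122). Iars2 and Vars2 were called lower under all 20 alternative settings. Vars2 is at chr17:35655634-35667592 on the minus strand, and 8.52% of its exonic bases are shared with an antisense gene.

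Aars2, the mitochondrial alanyl enzyme, whose variants in people can cause cardiomyopathy, had 21.5, 20.2 and 18.4 CPM in DUX_DOX libraries against 26.8, 23.5 and 27.2 CPM in EV_DOX libraries. In DUX libraries it had 23.2, 25.1 and 24.1 CPM, and in EV libraries 23.5, 24.4 and 20.3 CPM. The DUX_DOX libraries lay below EV_DOX and DUX but met the range of EV. Aars2 fell by 0.36 ± 0.10 (edgeR adjusted p = 0.0156), and the call was lost without DUX_DOX library 3 (edgeR adjusted p = 0.0711) or EV_DOX library 3 (edgeR adjusted p = 0.0579).

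Sars2, the mitochondrial seryl enzyme, had 12.6, 12.4 and 14.1 CPM in DUX_DOX libraries against 15.6, 17.7 and 16.9 CPM in EV_DOX libraries. DUX libraries gave 17.2, 16.5 and 17.3 CPM and EV libraries 14.8, 17.2 and 13.2 CPM. As with Aars2, DUX_DOX was below EV_DOX and DUX and overlapped EV. Sars2 fell by 0.36 ± 0.11 (edgeR adjusted p = 0.0261). Its call was lost without DUX_DOX library 1 or 2 (edgeR adjusted p = 0.0713 and 0.0766) and without EV_DOX library 2 or 3 (edgeR adjusted p = 0.0600 and 0.0664).

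The next mitochondrial genes by p did not pass. Tars2, the threonyl enzyme, had 22.9, 23.4 and 24.0 CPM in DUX_DOX libraries against 27.7, 26.1 and 28.6 CPM in EV_DOX libraries, with 25.1, 28.9 and 26.6 CPM in DUX libraries and 30.0, 26.7 and 25.4 CPM in EV libraries. All 3 DUX_DOX libraries were below the other 9, yet the fold change of -0.23 ± 0.09 gave an edgeR adjusted p of 0.0679. Tars2 was called lower with DESeq2 size factors and upper-quartile factors in edgeR and without EV_DOX library 2 (edgeR adjusted p = 0.0485, 0.0404 and 0.0472). Lars2 had 39.2, 40.7 and 36.4 CPM in DUX_DOX libraries against 42.7, 46.2 and 44.4 CPM in EV_DOX libraries, and 47.8, 52.2 and 46.0 CPM in DUX libraries against 48.4, 58.0 and 41.4 CPM in EV libraries. It too was lowest in the 3 DUX_DOX libraries, at -0.20 ± 0.11 against EV_DOX (edgeR adjusted p = 0.201).

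Hars2, the histidyl enzyme, had 17.8, 15.9 and 14.5 CPM in DUX_DOX libraries against 17.4, 18.4 and 18.8 CPM in EV_DOX libraries, with 20.2, 17.01 and 19.3 CPM in DUX libraries and 18.6, 18.8 and 16.9 CPM in EV libraries. These ranges overlapped, and its fold change was -0.18 ± 0.10 (edgeR adjusted p = 0.234). Hars2 and Hars share 195 exonic bases on opposite strands.

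A further 9 mitochondrial genes had log2 fold changes of -0.26 (Nars2, asparaginyl), -0.24 (Ears2, glutamyl), -0.21 (Fars2, phenylalanyl), -0.18 (Cars2, cysteinyl), -0.16 (Rars2, arginyl), -0.15 (Wars2, tryptophanyl), -0.15 (Yars2, tyrosyl), -0.14 (Mars2) and -0.01 (Pars2), and none of these passed the test. Standard errors in the mitochondrial set ran from 0.08 to 0.20, so differences of the size seen in most of these genes were not detectable at this depth and spread. Counting libraries in place of testing, 10 of the 17 had all 3 DUX_DOX libraries below all 3 EV_DOX libraries and 0 had them above, where 17.3% of all genes were below and 21.4% above. In 5 of the 17, Iars2, Lars2, Tars2, Vars2 and Wars2, the DUX_DOX libraries were below all 9 others, against 10.8% of all genes.

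Vars, the cytosolic valyl enzyme, was the cytosolic gene that passed. Its level was 42.4, 41.0 and 40.9 CPM in DUX_DOX libraries against 36.4, 32.5 and 31.6 CPM in EV_DOX libraries, with 31.0, 30.9 and 32.7 CPM in DUX libraries and 33.5, 32.7 and 33.1 CPM in EV libraries. The DUX_DOX libraries were above the other 9, and Vars rose by 0.31 ± 0.08 (edgeR adjusted p = 0.00909). The call was lost without EV_DOX library 2 (0.25, edgeR adjusted p = 0.0548) and when DUX_DOX and EV_DOX were fitted alone (edgeR adjusted p = 0.0581). Vars is at chr17:35000987-35016322 on the plus strand and shares no exonic base with another annotated gene.

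Iars, the cytosolic isoleucyl enzyme, had 89.0, 87.8 and 75.4 CPM in DUX_DOX libraries against 90.3, 102.9 and 106.8 CPM in EV_DOX libraries, and 99.0, 101.2 and 94.7 CPM in DUX libraries against 92.4, 106.5 and 94.3 CPM in EV libraries. It was lowest in the DUX_DOX libraries, at -0.25 ± 0.09 against EV_DOX (edgeR adjusted p = 0.0585). With size factors of the DESeq2 kind it was called lower (edgeR adjusted p = 0.0460), as it was with upper-quartile factors (edgeR adjusted p = 0.0268) and without EV_DOX library 1 or EV library 2 (edgeR adjusted p = 0.0227 and 0.0480). Iars also has a processed pseudogene, Gm4849, that matches 1656 bases of its transcript at 96.0% identity.

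Cars, the cysteinyl enzyme, had 44.9, 52.8 and 51.3 CPM in DUX_DOX libraries against 37.9, 44.2 and 41.5 CPM in EV_DOX libraries. It had 46.0, 44.2 and 40.6 CPM in DUX libraries and 34.8, 43.8 and 37.4 CPM in EV libraries. DUX_DOX lay just above EV_DOX and overlapped DUX, and the fold change was 0.27 ± 0.10 (edgeR adjusted p = 0.0629). Without DUX_DOX library 1 or EV library 2 Cars was called higher (edgeR adjusted p = 0.0378 and 0.0395).

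Qars, the glutaminyl enzyme, had 56.5, 56.4 and 53.3 CPM in DUX_DOX libraries against 58.4, 65.1 and 61.1 CPM in EV_DOX libraries, with 58.8, 59.6 and 57.2 CPM in DUX libraries and 63.5, 63.9 and 61.9 CPM in EV libraries. The DUX_DOX libraries were below the other 9 by a small margin, at -0.15 ± 0.07 (edgeR adjusted p = 0.123). Hars, the cytosolic histidyl enzyme, had 31.8, 31.3 and 34.6 CPM in DUX_DOX libraries against 31.2, 29.1 and 24.1 CPM in EV_DOX libraries, with 26.1, 25.2 and 24.5 CPM in DUX libraries and 29.6, 24.3 and 28.5 CPM in EV libraries. The 3 DUX_DOX libraries were the highest of all 12, and the fold change against EV_DOX was 0.21 ± 0.10 (edgeR adjusted p = 0.156).

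The remaining cytosolic genes with printed libraries overlapped between DUX_DOX and EV_DOX. Nars, the asparaginyl enzyme, had 110.5, 103.1 and 117.9 CPM in DUX_DOX libraries against 86.9, 102.2 and 106.8 CPM in EV_DOX libraries, with 107.5, 106.9 and 99.7 CPM in DUX libraries and 96.6, 102.5 and 106.8 CPM in EV libraries. Kars had 123.1, 111.9 and 123.9 CPM in DUX_DOX libraries against 100.4, 104.6 and 115.3 CPM in EV_DOX libraries, with 112.0, 117.9 and 111.3 CPM in DUX libraries and 90.0, 114.5 and 99.4 CPM in EV libraries. Both stood 0.16 above EV_DOX on the log2 scale with standard errors of 0.09, and the DUX_DOX and EV_DOX ranges met at 1 library each. Gars, the glycyl enzyme, in which human variants cause a motor neuropathy, had 81.2, 89.5 and 88.1 CPM in DUX_DOX libraries against 64.5, 79.0 and 82.6 CPM in EV_DOX libraries, with 80.0, 79.2 and 76.9 CPM in DUX libraries and 61.4, 82.0 and 59.8 CPM in EV libraries. Its fold change was 0.20 ± 0.12, with EV_DOX library 3 inside the DUX_DOX range.

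Dars, the aspartyl enzyme, had 59.3, 63.4 and 58.7 CPM in DUX_DOX libraries against 62.3, 66.9 and 68.3 CPM in EV_DOX libraries, with 65.8, 65.8 and 70.5 CPM in DUX libraries and 65.8, 66.1 and 73.0 CPM in EV libraries. Lars, the leucyl enzyme, had 43.3, 42.2 and 39.8 CPM in DUX_DOX libraries against 40.7, 46.2 and 46.1 CPM in EV_DOX libraries, with 40.2, 46.9 and 41.3 CPM in DUX libraries and 42.2, 42.6 and 43.3 CPM in EV libraries. Their fold changes were -0.12 ± 0.07 for Dars and -0.08 ± 0.08 for Lars, neither past the test. The other 8 cytosolic genes had log2 fold changes of 0.06 (Rars, arginyl), 0.06 (Aars, alanyl), 0.04 (Tars, threonyl), 0.00 (Wars, tryptophanyl), 0.00 (Sars, seryl), -0.03 (Mars, methionyl), -0.05 (Eprs) and -0.07 (Yars, tyrosyl). In 3 of the 18 cytosolic genes the DUX_DOX libraries were all above EV_DOX and in 2 all below, against 21.4% and 17.3% of all genes.

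**Figure D2:**
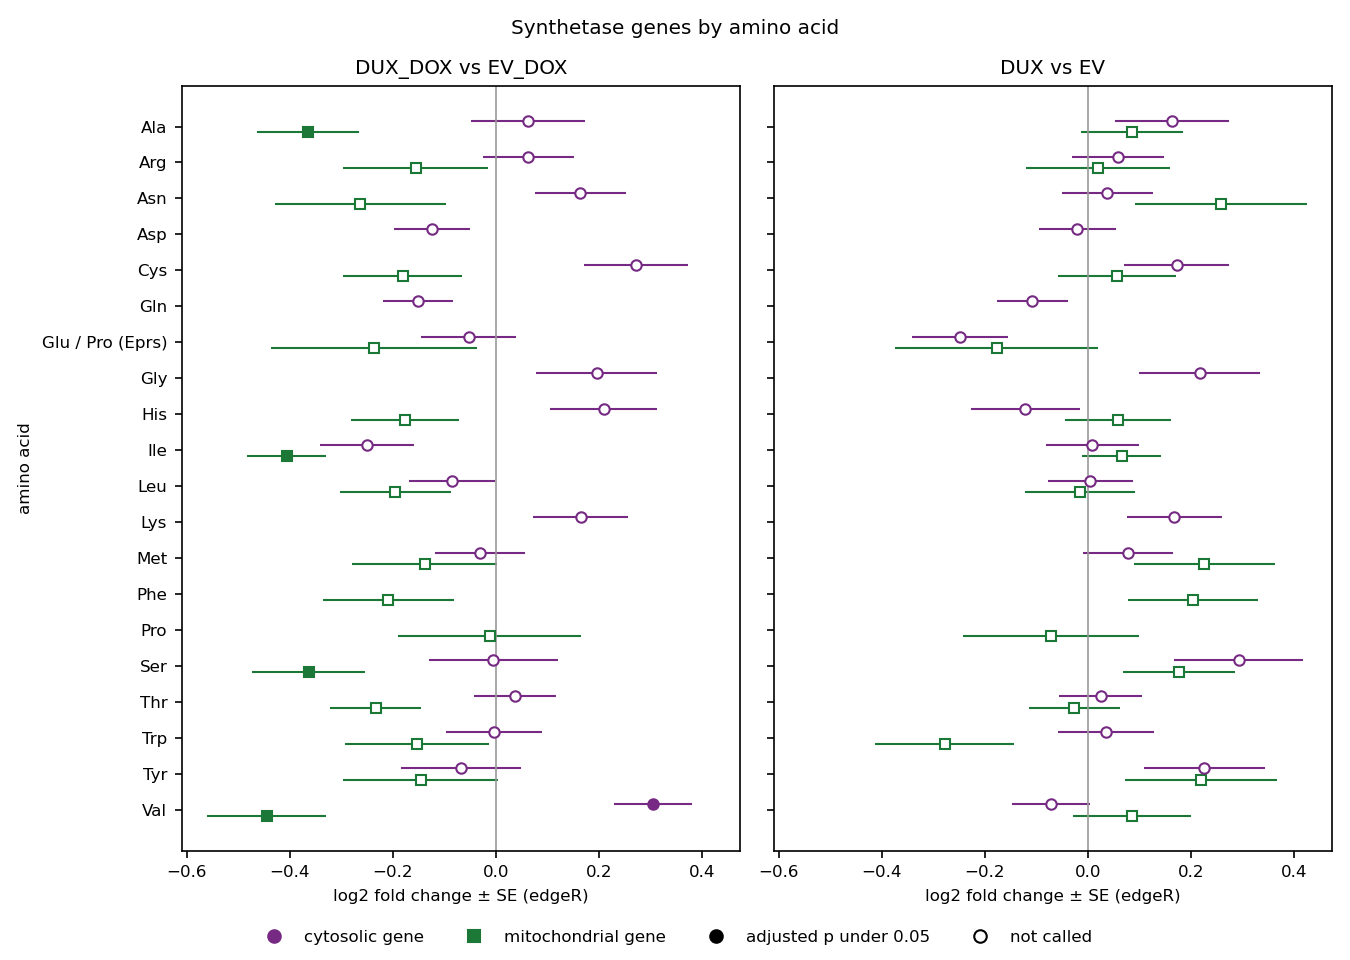
Log2 fold change ± standard error (x axis) of the same 34 synthetase genes by amino acid (rows), for DUX_DOX against EV_DOX on the left and DUX against EV on the right; circles are cytosolic genes, squares mitochondrial genes, and filled symbols were called. On the left every square is at or left of 0 and the filled ones are those for alanine, isoleucine, serine and valine, with the cytosolic valine gene filled on the right side of 0; in the DUX against EV panel none is filled.

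Setting each cytosolic gene against its mitochondrial partner within a library removes the scaling between libraries. The measure was the log2 ratio of the CPM of the pair, in which transcript length enters but cancels between groups, and no test was run on it. In 14 pairs for the same amino acid the mean ratio in DUX_DOX exceeded that in EV_DOX by 0.09 (Yars over Yars2) to 0.75 (Vars over Vars2), with a median of 0.25, and none of the 14 differences was negative. The same median for DUX minus EV was 0.00, with differences from -0.21 (Nars over Nars2) to 0.32 (Wars over Wars2). In 6 of the 14 pairs all DUX_DOX libraries were above EV_DOX, and in the others these libraries overlapped. The valyl pair had log2 ratios of 1.77, 1.72 and 1.82 in DUX_DOX libraries against 1.09, 1.08 and 0.88 in EV_DOX libraries, with 1.06, 0.91 and 0.91 in DUX libraries and 0.93, 1.13 and 1.31 in EV libraries. In this pair, and in the cysteinyl and seryl pairs, the DUX_DOX libraries were above the other 9. Of single genes 21.4% had DUX_DOX wholly above EV_DOX and 17.3% wholly below. The shares over other gene pairs were not computed, so these counts of pairs have no background.

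Summed over each set, the mitochondrial genes came to 281.3, 275.2 and 272.2 CPM in DUX_DOX libraries against 326.6, 323.1 and 351.8 CPM in EV_DOX libraries. The means were 276 ± 4.61 CPM in DUX_DOX, 334 ± 15.7 CPM in EV_DOX, 352 ± 7.74 CPM in DUX and 336 ± 23.9 CPM in EV (SD, n = 3 each). Of these, Iars2 alone gave 60.4 CPM in DUX_DOX, 80.0 CPM in EV_DOX, 85.0 CPM in DUX and 81.3 CPM in EV. It is the largest member of the sum, which is weighted towards it, and its counts may hold reads of Rab3gap2. The cytosolic sum was 1353 ± 37.5 CPM in DUX_DOX, 1330 ± 83.9 CPM in EV_DOX, 1351 ± 39.3 CPM in DUX and 1320 ± 81.1 CPM in EV (SD, n = 3 each). The cytosolic sum was 4.83 to 4.96 times the mitochondrial sum in DUX_DOX libraries and 3.59 to 4.31 times in the other 9, and these ranges did not meet. The fibre and macrophage markers given above moved in the same libraries. Of 8 satellite cell markers Des, Sdc4 and Vcam1 were called higher and Chodl lower in DUX_DOX against EV_DOX. Of all genes 14.9% were called higher and 10.3% lower. The 8 markers summed to 3049 to 3714 CPM in DUX_DOX libraries and 2244 to 2667 CPM in EV_DOX libraries. Their median log2 fold change was -0.19, so the higher sum does not stand for most of the 8. Of 8 endothelial markers Kdr was called lower, where 10.3% of all genes were lower, and the median was -0.13. These 8 summed to 415 to 436 CPM in DUX_DOX libraries and 461 to 508 CPM in EV_DOX libraries. The part of any of these cell types in the synthetase differences was not tested.

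**Figure D3:**
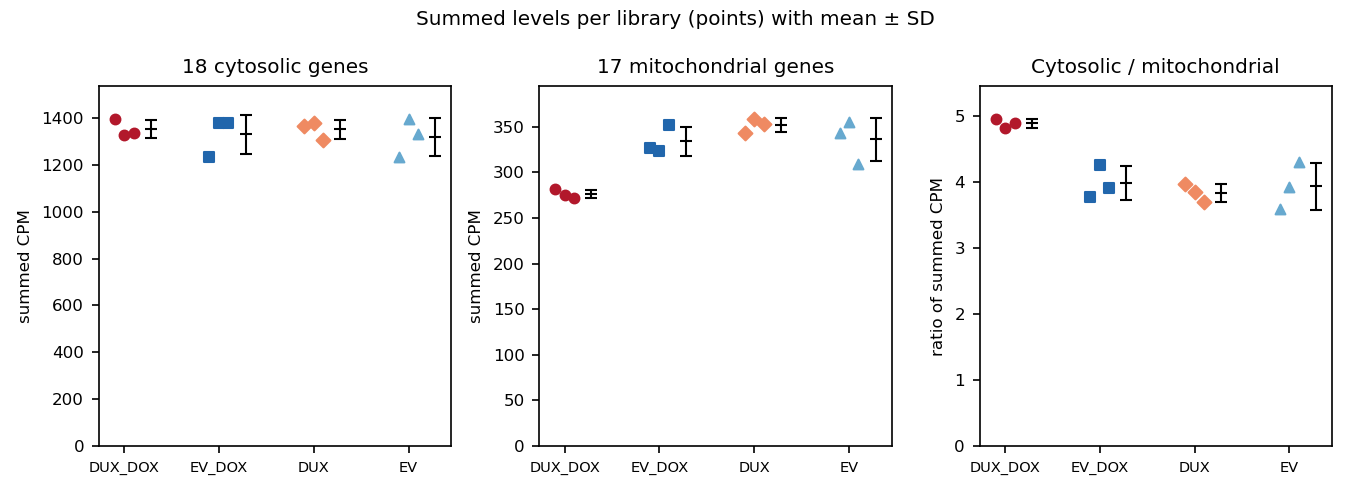
Summed CPM of the 18 cytosolic genes (left), of the 17 mitochondrial genes (middle) and the ratio of the sums (right) in each library, with mean ± SD per group of 3. The mitochondrial sums of the DUX_DOX libraries lie below those of every other library and the ratios above, while the cytosolic sums of the 4 groups overlap.

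DUX_DOX was also set against DUX, the same vector without doxycycline, which shares the DUX_DOX libraries with the comparison above. Here 29.6% of all genes were called, 16.5% higher and 13.1% lower. Of the mitochondrial genes 41.2% were called lower, among them Iars2, Vars2, Sars2, Mars2, Fars2 and Lars2, and all 17 had a fold change below 0, with a median of -0.27 against 0.01 over all genes. Of the cytosolic genes Vars and Hars were called higher and none lower, with a median of -0.01. Counting libraries, 12 of the 17 mitochondrial genes had DUX_DOX wholly below DUX and 0 above, against 22.6% of all genes below and 26% above, and in the cytosolic set 4 genes lay above and 4 below. Leaving out single libraries moved the number of mitochondrial calls to 4 without DUX_DOX library 3 or DUX library 1 and to 3 without DUX library 3.

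Iars2 fell by 0.49 ± 0.08 against DUX (edgeR adjusted p = 0.000328), and this call stood in all 20 alternatives. Vars2 fell by 0.42 ± 0.12 (edgeR adjusted p = 0.0150), Sars2 by 0.39 ± 0.11 (edgeR adjusted p = 0.0166) and Lars2 by 0.33 ± 0.11 (edgeR adjusted p = 0.0329). Mars2, which charges mitochondrial methionine tRNA, had 10.3, 10.3 and 8.19 CPM in DUX_DOX libraries against 13.05, 13.1 and 13.8 CPM in DUX libraries, with 10.4, 10.5 and 10.8 CPM in EV_DOX libraries and 12.9, 12.3 and 8.98 CPM in EV libraries. It fell by 0.47 ± 0.14 against DUX (edgeR adjusted p = 0.0195), with no overlap, while EV spanned nearly the whole range.

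Fars2, the mitochondrial phenylalanyl enzyme, had 18.4, 16.4 and 19.1 CPM in DUX_DOX libraries against 23.5, 23.5 and 24.5 CPM in DUX libraries, with 17.7, 19.9 and 24.6 CPM in EV_DOX libraries and 19.7, 24.0 and 18.5 CPM in EV libraries. The DUX_DOX and DUX libraries stood clearly apart, while DUX_DOX overlapped both EV_DOX and EV. Fars2 fell by 0.41 ± 0.13 against DUX (edgeR adjusted p = 0.0261). Of its exonic bases 10.7% are shared with Nrn1 and Lyrm4 on the opposite strand. Vars rose by 0.39 ± 0.08 against DUX (edgeR adjusted p = 0.00159) and Hars by 0.37 ± 0.10 (edgeR adjusted p = 0.0169). The Hars call was lost without DUX_DOX library 3 or DUX library 2 or 3 (edgeR adjusted p of 0.0530 to 0.0682), and the calls of Vars2, Sars2, Lars2, Mars2 and Fars2 were also lost without single libraries. Vars2 and Mars2 lost theirs without DUX_DOX library 3 or DUX library 3, Sars2 without DUX_DOX library 2 or DUX library 1 or 3, Fars2 without DUX_DOX library 2 or any DUX library, and Lars2 without DUX_DOX library 1 or 3 or DUX library 1 or 2 (edgeR adjusted p of 0.0506 to 0.123).

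Without doxycycline the Dux vector gave no call in either set. In DUX against EV, 0% of all genes were called by edgeR and 0 by limma-voom, 2012 genes had an unadjusted p under 0.05, and DESeq2 called 38 higher and 46 lower, none of them a member. Without EV library 2 edgeR called 68 higher and 50 lower, again no member. The median fold change was 0.04 in the cytosolic set and 0.07 in the mitochondrial set. Eprs at -0.25 ± 0.09 (edgeR adjusted p = 0.246) and Sars at 0.29 ± 0.13 (edgeR adjusted p = 0.281) had an unadjusted p under 0.05, and no mitochondrial gene did. DUX lay wholly below EV in Eprs, Qars, Vars and Ears2 and wholly above it in genes that included Mars2, against 11.6% of all genes below and 11.3% above. The 4 genes that were lower with doxycycline had fold changes of 0.07 (Iars2), 0.09 (Vars2), 0.09 (Aars2) and 0.18 (Sars2) without it.

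Doxycycline is itself an inhibitor of the mitochondrial ribosome, so EV_DOX against EV gives the change with the chow alone. In this comparison 0.0392% of all genes, 5 in number, were called and no member was. The number was 10 without EV_DOX library 1 and 0 to 2 without any other single library. The median fold change was 0.00 in the mitochondrial set and 0.04 in the cytosolic set. Wars2 came nearest, with 5.62, 5.81 and 6.57 CPM in EV_DOX libraries against 8.39, 7.05 and 8.21 CPM in EV libraries, 5.56, 5.51 and 5.10 CPM in DUX_DOX libraries and 5.77, 7.16 and 6.57 CPM in DUX libraries. Its EV_DOX and EV libraries did not overlap, where 6.45% of all genes were lower without overlap and 5.69% higher, and the fold change was -0.39 ± 0.14 (edgeR adjusted p = 0.529). Iars2 was at -0.02, Vars2 at 0.11, Aars2 at 0.18 and Sars2 at 0.15 in EV_DOX against EV.

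The interaction of vector and chow, that is the log2 fold change of DUX_DOX over EV_DOX less that of DUX over EV, called 10.4% of all genes, 6.97% with a positive and 3.43% with a negative term. Iars2 had a term of -0.47 ± 0.11 (edgeR adjusted p = 0.0138), Sars2 of -0.54 ± 0.16 (edgeR adjusted p = 0.0406) and Vars of 0.38 ± 0.11 (edgeR adjusted p = 0.0394). Vars2, at -0.53 ± 0.16, and Aars2, at -0.45 ± 0.14, missed the threshold (edgeR adjusted p = 0.0517 and 0.0545). The median term was -0.36 in the mitochondrial set, where 15 of 17 were negative and Wars2 and Pars2 positive, and -0.03 in the cytosolic set. Iars2 kept its call in all 19 alternatives, whereas Vars lost it in 13 and Sars2 in 10 of them. The libraries whose removal ended the Sars2 call were DUX_DOX 1 and 2, EV_DOX 2 and 3, DUX 1, 2 and 3 and EV 1 and 3, and the same libraries with DUX_DOX 3 ended the Vars call. Without EV_DOX library 1 the number of negative terms over all genes was 899 in place of 437, and without EV library 2 it was 670. It was 194 to 278 without DUX_DOX library 2 or 3, EV_DOX library 3, any DUX library or EV library 1 or 3.

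Other genes of tRNA charging and translation were set beside the members. Farsa and Farsb, the subunits of cytosolic phenylalanyl-tRNA synthetase, were at -0.03 and 0.15 in DUX_DOX against EV_DOX and were not called. Tarsl2, a second cytosolic threonyl enzyme that is abundant in muscle, had 61.2, 63.0 and 55.7 CPM in DUX_DOX libraries against 74.7, 82.3 and 84.4 CPM in EV_DOX libraries. It was without overlap and fell by 0.42 ± 0.07 (edgeR adjusted p = 0.000925), the only call among these 3 other synthetases. Of the 3 scaffolds of the multisynthetase complex 0 were called, with fold changes of -0.04 (Aimp1), -0.16 (Aimp2) and 0.23 (Eef1e1). Of the 8 synthetases held in that complex 0 were called, with a median of -0.07. In this comparison 25.3% of all genes were called, so few calls in lists this short say little.

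Of the 4 listed genes that finish mitochondrial glutaminyl-tRNA and formylmethionyl-tRNA, 2 were lower and 0 higher, where 10.3% of all genes were lower and 14.9% higher. Qrsl1, the catalytic subunit of the amidotransferase, had 14.3, 11.8 and 14.1 CPM in DUX_DOX libraries against 17.96, 18.7 and 19.8 CPM in EV_DOX libraries and fell by 0.49 ± 0.13 (edgeR adjusted p = 0.0125). Its partner subunit Gatb had 11.2, 13.6 and 14.6 CPM in DUX_DOX libraries against 19.4, 17.5 and 19.9 CPM in EV_DOX libraries and fell by 0.53 ± 0.14 (edgeR adjusted p = 0.0136). Neither overlapped between these groups, although the Gatb call was lost without DUX_DOX library 1 (edgeR adjusted p = 0.0557) and the Qrsl1 call without DUX_DOX library 2 (edgeR adjusted p = 0.0526). Gatc, the third subunit, was at -0.27 (edgeR adjusted p = 0.0549, and called lower without DUX_DOX library 1 or EV_DOX library 1, at 0.0296 and 0.0318) and Mtfmt, the methionyl-tRNA formyltransferase, at -0.14 (edgeR adjusted p = 0.473).

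Of 10 mitochondrial translation factors 5 were lower and 0 higher, against 10.3% of all genes lower and 14.9% higher, with a median of -0.35. Gfm2, a ribosome recycling factor, had 67.2, 64.2 and 59.1 CPM in DUX_DOX libraries against 88.8, 89.2 and 87.1 CPM in EV_DOX libraries and fell by 0.48 ± 0.07 (edgeR adjusted p = 0.000242). Gfm1, the elongation factor G, fell by 0.34 ± 0.09, Guf1 by 0.38 ± 0.10 and the initiation factor Mtif2 by 0.36 ± 0.10 (edgeR adjusted p = 0.0105, 0.0159 and 0.0170), and Mtrf1, a release factor homologue, also fell. Guf1 and Mtif2 lost their calls without DUX_DOX library 3 (edgeR adjusted p = 0.0754 and 0.0721), and Gfm1 without EV_DOX library 3 (edgeR adjusted p = 0.0528). Of 6 cytosolic elongation factors only Eef1b2 was called, as higher by 0.32 ± 0.11 (edgeR adjusted p = 0.0489), where 14.9% of all genes were higher. That call was lost in 14 of 20 alternatives, among them the removal of any DUX_DOX, EV_DOX or DUX library or of EV library 3.

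Genes of the integrated stress response, whose factor ATF4 targets several cytosolic synthetase genes, were also read. Atf4, the factor named above, had 230.3, 230.6 and 254.4 CPM in DUX_DOX libraries against 120.3, 140.0 and 142.7 CPM in EV_DOX libraries and rose by 0.83 ± 0.09 (edgeR adjusted p = 2.29e-05), with no overlap. Of 18 integrated stress response regulators measured 7 were higher and 1 lower, against 14.9% of all genes higher and 10.3% lower, with a median of 0.08. Ppp1r15a, which restores translation after eIF2 phosphorylation, rose by 2.76 ± 0.12 (edgeR adjusted p = 2.57e-09), and Sesn2, a leucine sensor, by 1.41 ± 0.20 (edgeR adjusted p = 0.000132). Vldlr, a lipoprotein receptor that ATF4 can induce, fell by 0.68 ± 0.09 (edgeR adjusted p = 0.000119).

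Trib3, an ATF4 target and inhibitor, had 1.83, 2.65 and 2.32 CPM in DUX_DOX libraries against 0.44, 1.01 and 1.80 CPM in EV_DOX libraries. It rose by 1.07 ± 0.37 (edgeR adjusted p = 0.0459), and its call was lost in 12 of 20 alternatives, among them the removal of DUX_DOX library 2 or 3, EV_DOX library 1 or 2, any DUX library or EV library 3. Ddit3, which encodes CHOP, had 14.0, 11.4 and 13.4 CPM in DUX_DOX libraries against 8.98, 12.4 and 17.3 CPM in EV_DOX libraries, which overlapped, at 0.01 ± 0.21 (edgeR adjusted p = 0.988). Ddit3 shares 68 exonic bases with Mars on the opposite strand. Of the 13 cytosolic synthetases listed as ATF4 targets Vars was called higher and none lower, where 14.9% of all genes were higher, and their median was 0.00.

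Among 21 amino acid synthesis enzymes 4 were higher and 4 lower, where 14.9% of all genes were higher and 10.3% lower, with a median of 0.09. Mthfd2, a mitochondrial folate enzyme, had 28.8, 39.4 and 39.2 CPM in DUX_DOX libraries against 5.11, 6.51 and 5.63 CPM in EV_DOX libraries and rose by 2.64 ± 0.17 (edgeR adjusted p = 9.27e-08). Psat1 of serine synthesis rose by 2.00 ± 0.28, Aldh18a1 of proline synthesis by 1.31 ± 0.19 and glutamine synthetase Glul by 0.81 ± 0.10 (edgeR adjusted p = 0.000157, 0.000213 and 6.52e-05). Asparagine synthetase Asns was at 1.75, 2.07 and 2.47 CPM in DUX_DOX libraries against 1.31, 1.47 and 1.17 CPM in EV_DOX libraries. Its libraries did not overlap, and the fold change of 0.67 ± 0.28 was not called (edgeR adjusted p = 0.0942).

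Of 13 amino acid transporters 6 were higher and 3 lower, beside 14.9% of all genes higher and 10.3% lower, with a median of 0.35. The neutral amino acid carrier Slc38a2 rose by 0.86 ± 0.10, the leucine carrier Slc7a5 by 1.40 ± 0.23 and the arginine carrier Slc7a1 by 0.97 ± 0.24, while the arginine carrier Slc7a2 fell by 0.76 ± 0.13 (edgeR adjusted p = 2.40e-05, 0.000512, 0.00879 and 0.00102). These lists come from whole muscle in which 12 of 14 macrophage markers were called higher, with a median log2 fold change of 1.12, and the part of that change in the stress and transport genes was not tested. For the synthetases the same holds, and the 10 fibre markers had a median of -0.30, with Actn3 and Pvalb called lower.

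**Figure D4:**
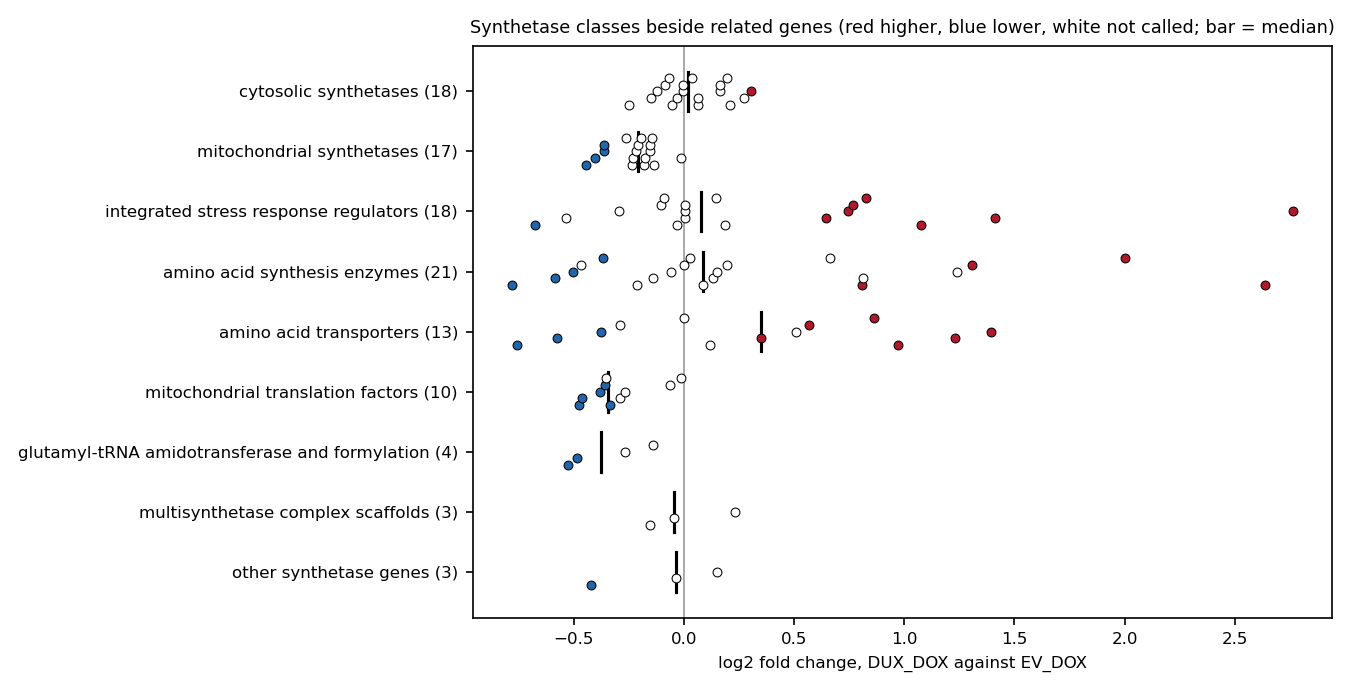
Log2 fold change in DUX_DOX against EV_DOX (x axis) of each gene of the 2 synthetase sets and of related lists, with the number of genes in brackets; red points were called higher, blue lower, white not called, and the bar is the median. The mitochondrial synthetases, translation factors and amidotransferase genes have medians of -0.21, -0.35 and -0.38, and the cytosolic synthetases 0.02, while stress, synthesis and transport genes spread widely, to 2.76 for Ppp1r15a.

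Promoter letters were read for the members that a RefSeq promoter table on GRCm38.p6 covers, 25 of 35 genes in 26 windows, each 250 bases before the RefSeq start. GENCODE M21, the annotation used here for gene positions, has other starts for some members. By it the Aars and Qars windows lie inside the genes, and others, such as that of Tars, overlap exons of their own gene. Aars2 has 2 annotated starts close together and so counts as 2 nearly identical windows among the 15 mitochondrial ones. The searches took both strands. The form TGATGNAA, a common core of the elements that ATF4 binds with C/EBP partners, was in 3 of 11 cytosolic windows and 0 of 15 mitochondrial windows, against 3.45% of all 32851 windows in the table. The 3 were Aars, Gars and Tars, with log2 fold changes of 0.06, 0.20 and 0.04 in DUX_DOX against EV_DOX, and none was called. Against DUX none was called either, but the DUX_DOX libraries lay wholly above DUX in Gars and Tars and overlapped in Aars. Of all genes 26% lay above DUX in this way. Atf4 was higher as RNA, and ATF4 protein was not measured. Vars, the cytosolic gene called higher, had no window and so was not searched. The matches of Gars and Tars are shown as examples. Each is 30 bases of the gene's strand, 5′ to 3′, with the match, here on the opposite strand, in capitals.
Gars, chr6:55037960-55037989, plus strand: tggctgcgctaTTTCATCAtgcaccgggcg
Tars, chr15:11399659-11399688, minus strand: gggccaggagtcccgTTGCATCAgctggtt

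Among the mitochondrial genes that fell, letters of factors tied to mitochondrial genes were looked for. CCGGAA, the core that ETS factors such as GABP bind, was in 6 of 15 mitochondrial windows, 4 of 11 cytosolic windows and 12% of all windows. GCATGCGC, part of the NRF1 site, was in 3 of 15 mitochondrial windows (Rars2, Vars2 and Wars2), 0 of 11 cytosolic windows and 2.26% of all windows. These short forms were taken after the letters had been seen. The longer CCGGAAGT, which holds CCGGAA, was in 1 member window (Mars) and 2.88% of all, and a longer NRF1 form that holds GCATGCGC was in 0 member windows and 0.782% of all. Both Aars2 windows held none of the forms. The 250-base windows of Iars2, Sars2 and Vars2 overlap annotated exons of Gm37785, Mrps12 and Gtf2h4, so their letters cannot be assigned to the synthetase gene alone. Matches in these 3 of the 4 genes called lower are shown, with the match in capitals.
Iars2, chr1:185329422-185329451, minus strand: cagacttccaagCCGGAAaaccccgccctt
Sars2, chr7:28741803-28741832, plus strand: acctccagccccTTCCGGggttcctcctta
Vars2 first, chr17:35667620-35667649, minus strand: gagtcttttacGCATGCGCctgcgtgtccc
Vars2 second, chr17:35667594-35667623, minus strand: tccccgcccacGCATGCGCgcgcacctcgc

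A core form of the motif that mouse Dux binds was in 0 of the 26 member windows and 0.177% of all windows. A match here is a run of letters, not a measured site, and the windows without one say only that these letters are absent from them.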

How the data were processed

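Per the submitters' processing notes, the authors used STAR and featureCounts, with GRCm38 as the build, after bcl2fastq 2.17.1.14, and deposited counts per gene. Other versions, the strand setting and the annotation were not given in the sources used here. Per the labels' protocols, libraries came from 200 ng RNA by poly-A selection. The deposited table holds raw counts of 12752 genes in 12 libraries, the lowest gene mean being 10.0, so rarer genes are not analysed here.

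From these, edgeR 4.0.16 (R 4.3.3) fitted all 12 libraries with TMM factors (0.916 to 1.12), its default filter, 1 mean per group, a prior count of 0.125 and two-sided quasi-likelihood tests, adjusted by Benjamini-Hochberg over 12751 genes (threshold 0.05). The median biological coefficient of variation was 12.3%, and prior degrees of freedom were 6.12. Standard errors are the log2 fold change over the root of F. CPM use the TMM-scaled totals. TPM use principal transcript lengths of GENCODE M21, which held 12728 of the identifiers. No library repeated another of its group (chi-square per degree of freedom 4.81 to 25.5). Alternatives were DESeq2 size factors in edgeR, upper-quartile factors, DESeq2 1.42.0, limma-voom (limma 3.58.1), no filter, a mean of at least 1 CPM, a replicate block, only the groups compared, and leaving out each library. The fits were checked on simulated counts.

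Members and gene lists were chosen with earlier results of these data known, so the lists are no independent evidence. Libraries are printed for the 10 cytosolic and 8 mitochondrial members with the smallest p in DUX_DOX against EV_DOX and for members called elsewhere, except 1 mitochondrial member that is not reported here by name, though it counts in the totals and sums; of other lists, for up to 4 genes by p and for Atf4, Ddit3, Asns, Trib3, Farsa, Farsb, Tarsl2, Qrsl1 and Mtfmt, some shortened to the fold change. Rab3gap2, Zscan4a and Wars2 were added for context. No T and NK cell marker was measured. The 8 genes listed for tRNA ends, export and deacylation had 0 calls in DUX_DOX against EV_DOX, where 25.3% of all genes were called. In DUX_DOX against DUX 1 of them was called higher (16.5% of all genes), and in the interaction 1 was called lower (3.43% of all genes).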

Additional observations from a re-analysis of the deposited data

Results flagged for a closer look

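For 3 of the 35 synthetase genes the change with the Dux vector on doxycycline chow differed from that on normal chow, by the interaction term of edgeR. Of all genes 10.4% were called by this term, so the count does not set the family apart. The term was -0.47 for Iars2, whose fold change was -0.41 in DUX_DOX against EV_DOX and 0.07 in DUX against EV. It was -0.54 for Sars2, with fold changes of -0.36 and 0.18 in the same comparisons. It was 0.38 for Vars, with fold changes of 0.31 and -0.07. The edgeR adjusted p was 0.0138 for Iars2, 0.0406 for Sars2 and 0.0394 for Vars, and over the alternatives it ran from 0.00214 to 0.0432 for Iars2, from 0.0152 to 0.0989 for Sars2 and from 0.0122 to 0.111 for Vars.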

How the results depend on the processing

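In DUX_DOX against EV_DOX the number of mitochondrial synthetases below 0 was 16 to 17 of 17 in all 20 alternatives, with medians from -0.25 to -0.16; the cytosolic median ran from -0.03 to 0.05 and was -0.02 with upper-quartile factors. Over the named genes of that comparison 1347 of 1440 values kept direction and side of the threshold, 40 lost and 29 gained a call and 24 changed sign. Cytosolic genes called lower were 1 with DESeq2 size factors, upper-quartile factors and DESeq2, and 1 against DUX with upper-quartile factors or only the groups compared; cytosolic genes called higher were 0 with only the groups compared. DESeq2 called 38 higher and 46 lower genes in DUX against EV, and 11 higher and 1 lower in EV_DOX against EV, where upper-quartile factors gave 1 and limma-voom and only the groups compared 0. Interaction calls were 4 mitochondrial with DESeq2 size factors and upper-quartile factors, and 0 cytosolic with upper-quartile factors and DESeq2. The causes were not tested. Ddit3 was at -0.0126 with DESeq2 size factors, -0.0278 with upper-quartile factors, -0.0133 with DESeq2 and -0.0058 with only the groups compared, and Sars at 0.0007 with limma-voom.

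Over all groups, 4 of 18 same-number pairs had deviations correlated above 0.1 (range -0.419 to 0.204). Only DUX_DOX with EV_DOX, and DUX with EV, can share a mouse. Their same-number correlations were -0.112, 0.094 and 0.005 for DUX_DOX with EV_DOX and -0.105, 0.176 and 0.117 for DUX with EV. These values do not settle whether the replicate numbers pair the libraries. With a replicate block, 2 cytosolic genes were called higher in DUX_DOX against EV_DOX, 0 genes in EV_DOX against EV, 0 cytosolic and 1 mitochondrial gene in the interaction, and Sars was at 0.0031.

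Leaving out 1 library gave, in DUX_DOX against EV_DOX, 739 to 1385 lower genes among all tested, 0 to 2 higher and 0 to 1 lower cytosolic genes and 2 to 4 lower mitochondrial genes; in DUX_DOX against DUX, 1 to 2 higher cytosolic and 3 to 8 lower mitochondrial genes, with medians of -0.04 to 0.04 and -0.34 to -0.27; in DUX against EV, 0 to 68 higher and 0 to 50 lower genes, with 5 to 8 cytosolic genes below 0; in EV_DOX against EV, 0 to 10 higher genes; and in the interaction, 194 to 899 negative genes, 0 to 1 cytosolic and 1 to 3 mitochondrial calls and a mitochondrial median of -0.40 to -0.27. Fold changes near 0 changed sign: Rars (-0.0041 to 0.11), Eprs (-0.12 to 0.0252), Yars (-0.19 to 0.0487), Aars (-0.0332 to 0.12), Pars2 (-0.10 to 0.0887), Sars (-0.11 to 0.0861), Farsa (-0.11 to 0.0037), Aimp1 (-0.13 to 0.068), Eef1d (-0.17 to 0.0518) and Ddit3 (-0.20 to 0.27), and elsewhere Vars2 in DUX against EV (-0.0046 to 0.20) and Vars (-0.0488 to 0.0561) and Iars2 (-0.0684 to 0.0376) in EV_DOX against EV. The smallest standard error of a member was 0.07, so changes of a few percent were not detectable at this spread.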
